A study of Mus musculus with 8 samples.

Results

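Expression of 9 genes of bile duct epithelium and the ductular reaction was examined in mouse liver: Krt7, Krt19, Krt8, Krt18, Krt23, Sox9, Epcam, Cd24a and Cftr. They were chosen by name, and every non-control probe carrying one of these names on the array was included, with the older symbol Tacstd1 accepted for Epcam. This gave 14 probes, of which 13 were detected, out of 41174 non-control probes and 16557 genes with a detected probe. All 9 genes had at least 1 detected probe. Whole liver came from wild-type male C57BL/6 mice (C57BL/6J in the study's methods) that were 14 to 17 weeks old when the experiment began. Of these, 4 mice were fed a standard chow (STD) diet and 4 an atherogenic (ATH) diet for 4 weeks, with 1 one-color array per mouse. The ATH diet, which the labels call a high-fat/high-cholesterol diet, also contained cholic acid, a bile acid, so fat, cholesterol and bile acid changed together and cannot be told apart. No mouse carried a transgene or a targeted allele.

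Cholangiocytes are the epithelial cells that line the bile ducts. They are a small part of the liver, and they are known for keratins 7 and 19, the transcription factor Sox9, the adhesion molecule Epcam and the chloride channel Cftr. In chronic injury, and above all in cholestasis, small duct-like cells can multiply around the portal tracts, which is called the ductular reaction, and injured hepatocytes can also switch on some duct genes, Sox9 among them. Keratins 8 and 18, by contrast, are the ordinary keratin pair of hepatocytes as well as of duct cells. RNA was taken from whole liver, so a change in the number of cells of a type and a change in RNA per cell cannot be told apart.

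Values are log2 processed signal minus the 75th percentile of the same array, termed scaled log2 signal here, and a change is the mean of the ATH mice minus the mean of the STD mice. A positive change therefore means a higher signal on the ATH diet. A probe was detected when it was well above background, positive and significant and not an outlier in at least 3 of the 4 mice on one or the other diet. Where a gene had several probes, the brightest detected probe stood for it, and levels were not compared between probes. A gene was called at an adjusted p of 0.05, by limma with Benjamini-Hochberg adjustment over all detected probes.

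The probes of Krt7 and Sox9 are shown first, since their probes lie far apart and gave unlike values, although neither Krt7 probe passed the test. Positions are those of the array design, on mouse assembly mm7, and no exon annotation of that assembly was used here. In Krt7, on chromosome 15, the upstream probe lay at chr15:101409444-101409503 and the downstream probe at chr15:101413898-101413957, 4454 bases further along the plus strand. Of the downstream probe, bases 16 to 45 are shown, with the letters AATAAA, the usual polyadenylation signal, in capitals. These letters occur in 4.78% of all non-control probes on the array.
Krt7 upstream probe: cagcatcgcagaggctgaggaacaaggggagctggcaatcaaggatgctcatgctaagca
Krt7 downstream probe: aactgctgttggctttAATAAAgggcctct

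Sox9 had 3 probes on the plus strand of chromosome 11. The most upstream, at chr11:112892041-112892893, covered 853 bases of genome with 60 bases of probe and so crosses a splice junction. The middle probe, at chr11:112894739-112894798, lay 2698 bases further on and was the brightest. The most downstream, at chr11:112896540-112896599, lay 4499 bases from the first and was printed as 10 spots on each array. Of the middle probe the first 30 bases are shown, and of the downstream probe bases 31 to 60.
Sox9 upstream probe: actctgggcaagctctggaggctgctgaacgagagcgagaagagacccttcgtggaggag
Sox9 middle probe: ttccaggagagagactttaagactttgtct
Sox9 downstream probe: catctttcgatttctgtataaaaacagacc

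Krt8 and Krt18, whose proteins pair into one filament, lie on the same chromosome in opposite orientation. One of the Krt8 probes, at chr15:101983072-101983131 on the minus strand, and the Krt18 probe, at chr15:102018067-102018126 on the plus strand, share an 11-base run that is capitalized in both. The probes otherwise differ, and the values of the pair are given side by side further on.
Krt8 probe: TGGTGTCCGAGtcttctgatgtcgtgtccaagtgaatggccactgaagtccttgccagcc
Krt18 probe: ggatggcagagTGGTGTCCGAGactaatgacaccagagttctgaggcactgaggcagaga

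The other 2 genes shown are Cd24a, one of the genes that rose, and Epcam, one that did not pass the test. The Cd24a probe lay at chr10:43397200-43397259 on the plus strand, and its first 30 bases are shown. The Epcam probe, at chr17:85952074-85952902 on the plus strand, spanned 829 bases of genome and so also crosses a splice junction.
Cd24a probe: cttggttctaccgtaagtttttccaatttc
Epcam probe: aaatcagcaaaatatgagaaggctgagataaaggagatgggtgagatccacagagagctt

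Sox9 and Cd24a rose on the ATH diet, 2.06-fold and 1.79-fold, and the other 7 genes did not pass the test. Thus 2 of 9 members were called higher and none was called lower, while 4.05% of the 16557 genes with a detected probe were called higher and 5.3% lower. At the false discovery rate of 1% that the study used, 0 members were called by limma, against 0.64% of all genes, although 4 members (Krt7, Krt8, Sox9 and Cd24a) had an unadjusted p under 0.05. In the same 4 genes, every ATH mouse lay above every STD mouse, a pattern found in 7.59% of all genes. The change was positive in 7 of 9 members, with a median of 0.42, against a median of -0.14 over all genes. The genes were selected with earlier results of these data known, so these counts are descriptive.

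**Figure D1:**
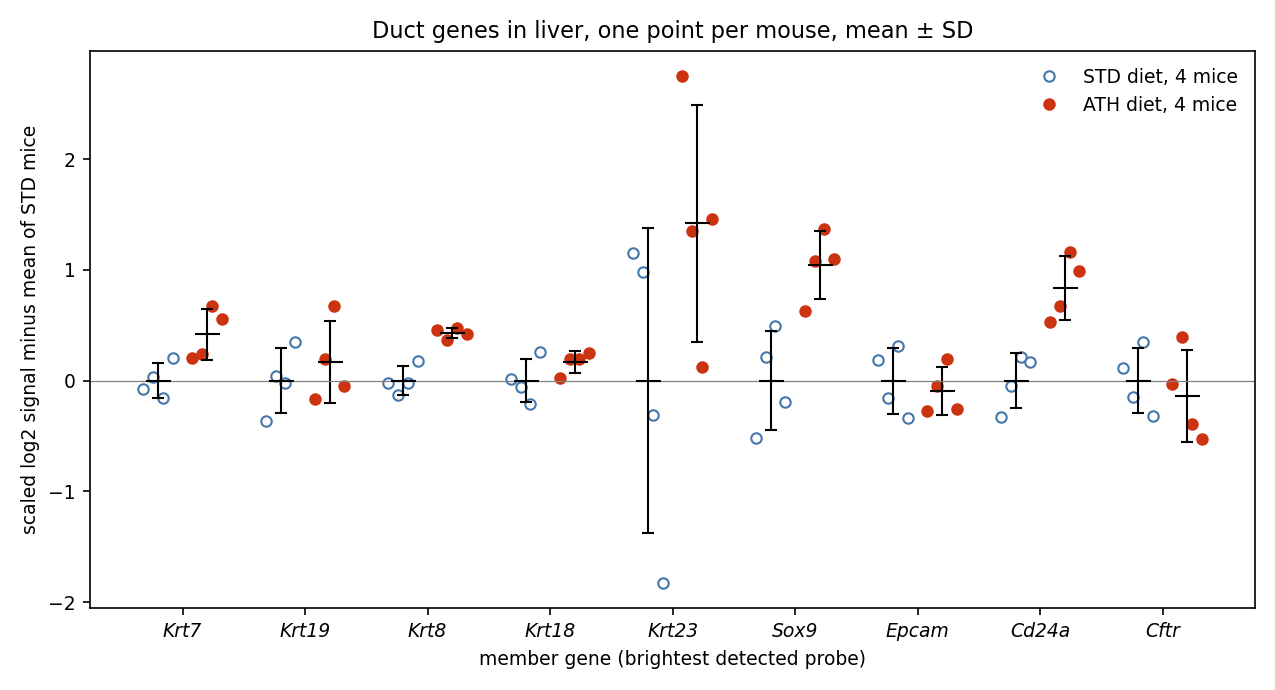
Scaled log2 signal of the brightest detected probe of each of the 9 genes, minus the mean of the 4 STD mice, with 1 point per mouse (open, STD; filled, ATH) and bars for mean ± SD. All filled points lie above all open points for Krt7, Krt8, Sox9 and Cd24a, whereas the diets overlap in the other 5 genes and Krt23 has the widest spread.

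Sox9 encodes the transcription factor that marks duct cells in adult liver. At its brightest probe, the middle one, the STD mice had scaled log2 signals of -0.92, -0.18, 0.09 and -0.59, and the ATH mice had 0.22, 0.68, 0.96 and 0.70. The highest STD mouse and the lowest ATH mouse were therefore close, but the diets did not overlap. The change was 1.04 ± 0.24 (SE, n = 4 per diet; 95% interval 0.49 to 1.59; limma adjusted p = 0.039). The most downstream probe gave -1.62, -1.17, -0.72 and -1.29 in STD mice and -0.61, -0.56, 0.11 and -0.09 in ATH mice. The diets did not overlap there either, with a change of 0.91 ± 0.23 (adjusted p = 0.0476).

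The upstream, junction-crossing Sox9 probe did not share this change. It gave -4.15, -3.87, -3.58 and -3.93 in STD mice and -3.91, -3.68, -4.10 and -4.09 in ATH mice, so that the diets overlapped fully. Its change was -0.06 (95% interval -0.42 to 0.31, adjusted p = 0.832). It was well above background on all 8 arrays, which at so low a signal does not show that it measured Sox9 RNA. When the 3 probes were averaged, the change of Sox9 was 0.63 (adjusted p = 0.0592) and the call was lost. The 10 spots of the downstream probe differed within an array by an SD of 0.0572 to 0.119, while the mice differed by an SD of 0.371 on the STD diet and 0.352 on the ATH diet, so the spread was larger between mice than between spots.

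Cd24a encodes a small surface glycoprotein found on duct and progenitor cells, and also on developing B cells and on neutrophils. Its scaled log2 signals were -2.36, -2.08, -1.82 and -1.86 in STD mice and -1.50, -1.36, -0.87 and -1.04 in ATH mice. Each ATH mouse exceeded each STD mouse, with a change of 0.84 ± 0.19 (SE, n = 4 per diet; 95% interval 0.42 to 1.26; limma adjusted p = 0.0347). With the paired fit, which took replicate numbers as blocks, Sox9 and Cd24a were still called (adjusted p = 0.0326 and 0.0347), while the share of all genes called higher was 2.07%.

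Both calls rested on the full set of arrays. With 1 array left out in turn, each gene was called in 2 of 8 fits, those without ATH replicate 1 or ATH replicate 2, and lost in the 6 fits without any STD replicate, ATH replicate 3 or ATH replicate 4. Over the 8 fits the adjusted p ranged from 0.0408 to 0.0953 for Sox9 and from 0.0286 to 0.0908 for Cd24a. The size of the change moved less, from 0.87 to 1.21 for Sox9 and from 0.73 to 0.94 for Cd24a. Each diet had 1 slide to itself, and therefore the slide and the diet cannot be told apart.

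Levels of marker lists for blood and tissue cells that can carry Cd24a or lie near ducts stand beside these changes, and their part in them was not tested. Of 8 neutrophil markers, 6 were detected and 0 were called by limma, with a mean level between -2.94 and -2.18 in STD mice and between -2.41 and -0.83 in ATH mice. In the paired fit, 2 of them, S100a8 and S100a9, were called higher (changes 1.93 and 1.73, adjusted p = 0.0271 and 0.0301). Among the 6 detected, 5 changes were positive and 1 was negative. Cxcr2 changed by -0.48 at its brightest probe (limma adjusted p = 0.109), and Ngp by 0.24 (limma adjusted p = 0.433). Of 8 B cell markers, 6 were detected and 0 were called, with mean levels of -2.91 to -2.42 and -2.94 to -1.91, and the defining markers Pax5 and Blk were not detected. Of 8 macrophage markers, all were detected and 4 were called higher (2 in the paired fit), with mean levels of 0.83 to 1.32 and 1.41 to 3.86. Of 8 stellate cell markers, all were detected and 0 were called, with mean levels of 0.66 to 1.06 and 1.17 to 1.78. ATH replicate 3 had the highest neutrophil, B cell and stellate cell levels (stellate 1.78) and the lowest level of hepatocyte markers (7.19). The macrophage level was highest in ATH replicate 4 (3.86, against 3.73 in ATH replicate 3). ATH replicate 3 was also the highest ATH mouse for Sox9, Cd24a and 6 of the 9 members in all. Whether these orders are related was not tested. The hepatocyte markers that define the tissue had mean levels of 7.74 to 7.86 and 7.19 to 7.62, with 3 of 9 detected genes called lower (1 in the paired fit).

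The 5 keratins gave 0 calls at their brightest probes, although all 5 changes were positive. Krt8, which forms the hepatocyte filament together with Krt18, came closest. At its brightest probe it had 6.45, 6.34, 6.45 and 6.64 in STD mice and 6.92, 6.84, 6.94 and 6.89 in ATH mice. The diets did not overlap, and the ATH mice were closely grouped (SD 0.047, against 0.127 in STD mice). The change of 0.43 ± 0.12, or 1.35-fold, had an adjusted p of 0.0531.

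The second Krt8 probe, which lies 132 bases upstream and is the one shown above, passed. It gave 6.35, 6.36, 6.42 and 6.53 in STD mice and 6.79, 6.89, 6.98 and 6.87 in ATH mice, with a change of 0.46 ± 0.11 (adjusted p = 0.0413). The call of this probe was lost in the paired fit (adjusted p = 0.0638). The mean of both probes rose by 0.45 (adjusted p = 0.0331). Thus Krt8 lay at the threshold, with similar changes at both probes.

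Krt18, the partner of Krt8, had 7.23, 7.17, 7.01 and 7.48 in STD mice and 7.24, 7.41, 7.41 and 7.47 in ATH mice. The diets overlapped, since STD replicate 4 lay above every ATH mouse. The change was 0.16 (95% interval -0.14 to 0.47, adjusted p = 0.445). Within each mouse, Krt8 changed by 0.27 more than Krt18, a difference that did not pass (exact permutation test, two-sided, p = 0.0857, adjusted p = 0.22 over 36 pairs).

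Krt7 and Krt19 are the keratins most often used to stain bile ducts. At its brightest, downstream probe, Krt7 had -2.33, -2.21, -2.40 and -2.05 in STD mice and -2.04, -2.01, -1.58 and -1.69 in ATH mice. The lowest ATH mouse was just above the highest STD mouse, and the change of 0.42 ± 0.15 did not pass (adjusted p = 0.114), and was 0.24 with normexp background correction. The upstream Krt7 probe gave -3.18, -3.66, -3.38 and -4.00 in STD mice and -3.57, -3.61, -3.76 and -3.95 in ATH mice, which overlapped. Its change was -0.17 (95% interval -0.60 to 0.26, adjusted p = 0.586). The mean of both Krt7 probes changed by 0.12 (limma adjusted p = 0.446). In both Krt7 and Sox9, then, the most upstream probe had a smaller change than the probes further downstream, a difference that was not tested. In both genes the upstream probe was also the dimmest, so position and brightness cannot be told apart.

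Krt19 had -2.44, -2.04, -2.10 and -1.73 in STD mice and -2.24, -1.89, -1.40 and -2.12 in ATH mice. Its diets overlapped, and the change was 0.16 (95% interval -0.33 to 0.66, adjusted p = 0.648), an interval that leaves room for a change in either direction.

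Krt23, an acidic keratin known to be induced in stressed and injured liver, had the largest change of the 9 members with all arrays included, and the largest spread. It had 1.15, 0.97, -0.31 and -1.83 in STD mice and 2.74, 1.35, 0.12 and 1.45 in ATH mice. The lowest ATH mouse, replicate 3, lay below 2 of the 4 STD mice. The change was 1.42 ± 0.72, or 2.68-fold, with a 95% interval of -0.22 to 3.06 (adjusted p = 0.229). Without STD replicate 4 it was 0.81, and without ATH replicate 1 it was 0.98, both below the change of Sox9 in the same fits (0.98 and 1.18). The order of the ATH mice was opposite in part to that of the other members, as replicate 3 was the lowest for Krt23 and the highest for Krt7, Krt19, Krt8, Sox9, Epcam and Cd24a.

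Epcam, the surface adhesion molecule of duct and progenitor cells, was not called, unlike Sox9 and Cd24a. It had -2.82, -3.17, -2.70 and -3.35 in STD mice and -3.28, -3.06, -2.81 and -3.27 in ATH mice. The diets overlapped, with a change of -0.09 (95% interval -0.51 to 0.32, adjusted p = 0.764). Its signal was low, and detection at such signals does not show that they came from the gene named. All 6 keratinocyte keratins, markers of cells outside the biliary tree, were also detected, at mean levels of -2.70 to -2.57 in STD mice. The same limit applies to Cftr and to the upstream probes of Sox9 and Krt7, and it was not tested.

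Cftr, the chloride channel through which secretin stimulates bicarbonate-rich bile, had -3.16, -3.42, -2.92 and -3.59 in STD mice and -3.30, -2.88, -3.66 and -3.80 in ATH mice at its detected probe. The diets overlapped, and the change was -0.14 (95% interval -0.66 to 0.39, adjusted p = 0.725). Its 10 spots per array differed by an SD of 0.0888 to 0.346, a spread that reached that of the mice (SD 0.295 on the STD diet and 0.414 on the ATH diet). The other Cftr probe, 54744 bases upstream, was well above background on 0 STD arrays and 1 ATH array and was not tested. The change at the brightest Sox9 probe (1.04) lay above the 95% intervals of Epcam and Cftr, whereas that at the upstream Sox9 probe (-0.06) lay inside both. The test between members is given further on.

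**Figure D2:**
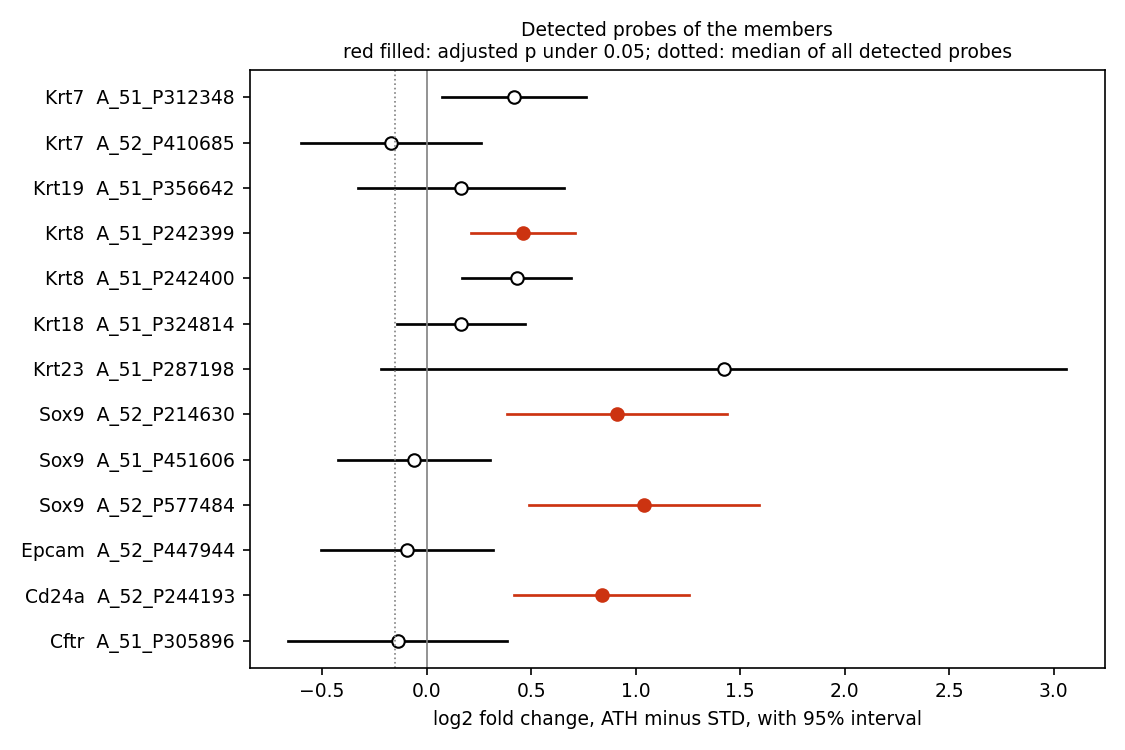
Change in log2 signal (ATH minus STD) with its 95% interval for each of the 13 detected probes, with filled red points at an adjusted p under 0.05 and a dotted line at the median of all detected probes (-0.15). Of the 4 red probes 2 belong to Sox9, while the third Sox9 probe and the upstream Krt7 probe have intervals that include 0.

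Changes were also compared between members within each mouse, on scaled log2 signal. Such differences do not depend on a scaling that shifts all probes of an array by the same amount. They can differ with quantile normalization, where Krt18 changed by 0.505 and Krt19 by 0.168, against 0.165 and 0.164 on scaled log2 signal. Of 36 pairs, 6 reached the smallest p that 4 against 4 mice allow (exact permutation test, two-sided, p = 0.0286), and 0 passed after Benjamini-Hochberg adjustment (smallest adjusted p = 0.172). In all 6, Sox9 or Cd24a had the larger change. Sox9 exceeded Epcam by 1.14, Cftr by 1.18 and Krt19 by 0.88, and Cd24a exceeded Epcam by 0.93, Krt19 by 0.67 and Krt18 by 0.67. With so few mice, at least 21 of the 36 pairs would have had to reach the smallest p for any to pass, so the test does not show whether or not Sox9 and Cd24a responded differently from the other duct genes. It also took no account of the replicate numbers.

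The level of all genes relative to each array's scale mattered for the members near 0. The median change over all detected probes was -0.15 with the 75th percentile, -0.08 with the array median, -0.05 with quantile normalization, 0.16 with spike-in probes and 0.30 without scaling. Sox9 and Cd24a were called under each of these 5 scalings and lay above the median of all probes by 1.11 to 1.19 and by 0.88 to 0.99. Krt8 lay above it by 0.58 to 0.80, and was called under the 4 scalings other than the 75th percentile. Epcam and Cftr turned from below 0 to above 0 with spike-in probes (0.22 and 0.17) and without scaling (0.35 and 0.31), but stayed within 0.06 of the median of all probes under all 5.

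**Figure D3:**
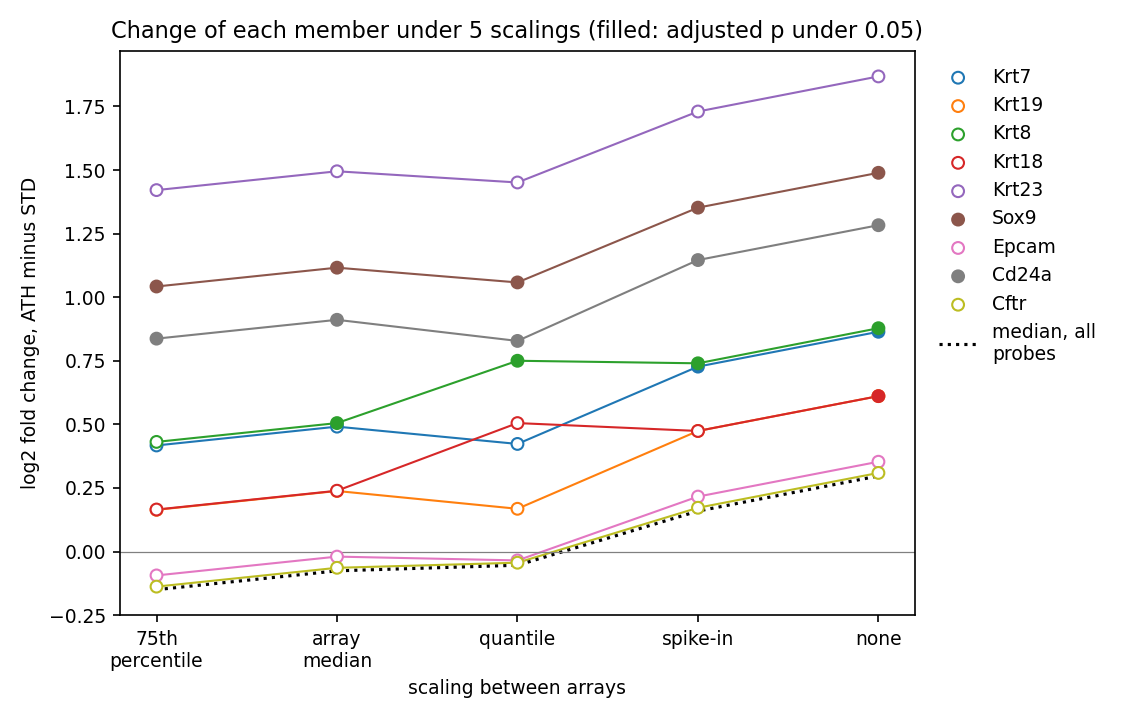
Change in log2 signal (ATH minus STD) of each member under 5 ways of scaling the arrays, filled where the adjusted p was under 0.05, with the median of all detected probes dotted. Sox9 and Cd24a are filled under every scaling, Epcam and Cftr follow the dotted line, and the points of Krt18 and Krt19 coincide except under quantile normalization.

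A wider list of 54 genes related to ducts, the ductular reaction or keratin aggregates was then examined. Not all of them are duct genes, and Ubb was listed with the keratin aggregates. Of these, 53 had a probe and 50 were detected, with 2 called higher (Hey1 and Elf3) and 1 lower (Ubb). Changes were positive in 30 genes and negative in 20, with a median of 0.15. The 2 higher calls among 50 genes are close to the share of all genes called higher.

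Hey1, a transcriptional repressor that is a direct target of Notch signaling, had -2.47, -2.81, -2.96 and -2.95 in STD mice and -2.05, -1.63, -1.65 and -1.49 in ATH mice. The diets did not overlap, and the change was 1.09 ± 0.17, or 2.14-fold (adjusted p = 0.0137). The call was kept in the paired fit (adjusted p = 0.0487) and in all 8 fits with an array left out, and the change was 0.62 with normexp background correction (adjusted p = 0.0105). The other 8 Notch and YAP pathway genes did not pass. Notch drives duct differentiation through Jag1, the ligand (change 0.53, adjusted p = 0.0839, but -0.72 and 0.178 at a dimmer probe), and Notch2, the receptor (0.04, adjusted p = 0.834), and the Notch target Hes1 had a change of 0.04 (adjusted p = 0.955).

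Elf3, an epithelium-specific ETS factor, had -5.24, -4.83, -4.73 and -4.97 in STD mice and -3.28, -4.40, -2.64 and -2.19 in ATH mice. All ATH mice were higher but ATH replicate 2 only slightly so. The change of 1.81 ± 0.42 (3.52-fold, adjusted p = 0.0377) was lost in the paired fit (adjusted p = 0.0555) and in 7 of 8 fits with an array left out, all but the one without ATH replicate 2. With normexp background correction it was 0.52 (adjusted p = 0.0626). The other 6 transcription factors of that group, among them Hnf4a, chiefly a factor of hepatocytes, did not pass at their brightest probe. A dimmer probe of Onecut1, a factor of early duct development, was called lower (change -1.69, adjusted p = 0.0384, and 0.0482 in the paired fit), while its brightest probe changed by -0.85 (adjusted p = 0.175).

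Among genes that contribute to keratin aggregates, Ubb, a ubiquitin precursor, had 8.002, 7.72, 7.89 and 7.99 in STD mice and 7.37, 7.37, 7.40 and 7.44 in ATH mice. The ATH mice were all lower and closely grouped. The change was -0.51 ± 0.12 (adjusted p = 0.0372), and the call was lost in the paired fit (adjusted p = 0.0587) and in 6 of 8 fits with an array left out. It was also lost under each of the 4 other scalings, where the change was -0.43 with the array median, -0.17 with quantile normalization, -0.20 with spike-in probes and -0.06 without scaling (adjusted p = 0.0647, 0.484, 0.382 and 0.77). The other 4 detected genes of that group did not pass, among them Sqstm1, the adaptor also called p62 (change -0.14, adjusted p = 0.46).

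The remaining groups had 0 calls by limma at 5% at the brightest probe of each gene, and the gene with the largest change in each is given. Cldn4, a tight junction protein, was 1 of 10 adhesion and surface genes (change 0.97, adjusted p = 0.159). Gpbar1, the membrane bile acid receptor, was 1 of 7 detected genes of bile duct transport and secretion (1.09, adjusted p = 0.0968), and Sctr and Ggt1 of that group were not detected. Bicc1, an RNA-binding protein whose loss gives cystic kidneys, was 1 of 5 cilium and polycystic disease genes (0.61, adjusted p = 0.149). Among 7 detected ligands, receptors and secreted proteins, with Tnfsf12 not detected, the largest change was that of Lcn2, an acute-phase lipocalin (3.20, 95% interval -0.24 to 6.64, adjusted p = 0.202). Spp1, osteopontin, and Tnfrsf12a, the TWEAK receptor, were higher in every ATH mouse than in any STD mouse without passing (changes 1.505 and 1.14, adjusted p = 0.103 and 0.0709). Ctgf, Tgm2 and Pkd2 of other groups had the same pattern without passing (changes 0.95, 0.57 and 0.23, adjusted p = 0.0666, 0.0546 and 0.218). That pattern was found in 7.59% of all genes. Fgf7, of the group of Lcn2 and Spp1, had a change of -0.80 (adjusted p = 0.0728), and its diets overlapped. In that group, 5 changes were positive and 2 negative. Cldn3, an adhesion gene, was lower in every ATH mouse than in any STD mouse (change -0.45, adjusted p = 0.172). With normexp background correction, the change of Cldn4 was 0.13 and that of Gpbar1 0.014 (adjusted p = 0.605 and 0.955), whereas without scaling Cldn4, Gpbar1 and Bicc1 were called (adjusted p = 0.038, 0.0217 and 0.0392).

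Probes of a gene also differed in these groups. St14, a membrane serine protease, had a change of 0.46 at its brightest probe (adjusted p = 0.142) and of -0.81 at a dimmer one (adjusted p = 0.0266, and 0.06 in the paired fit). Hgf, the hepatocyte growth factor, had 0.21 at its brightest probe (adjusted p = 0.341) and 0.84 at a dimmer one (adjusted p = 0.0407, and 0.0648 in the paired fit).

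**Figure D4:**
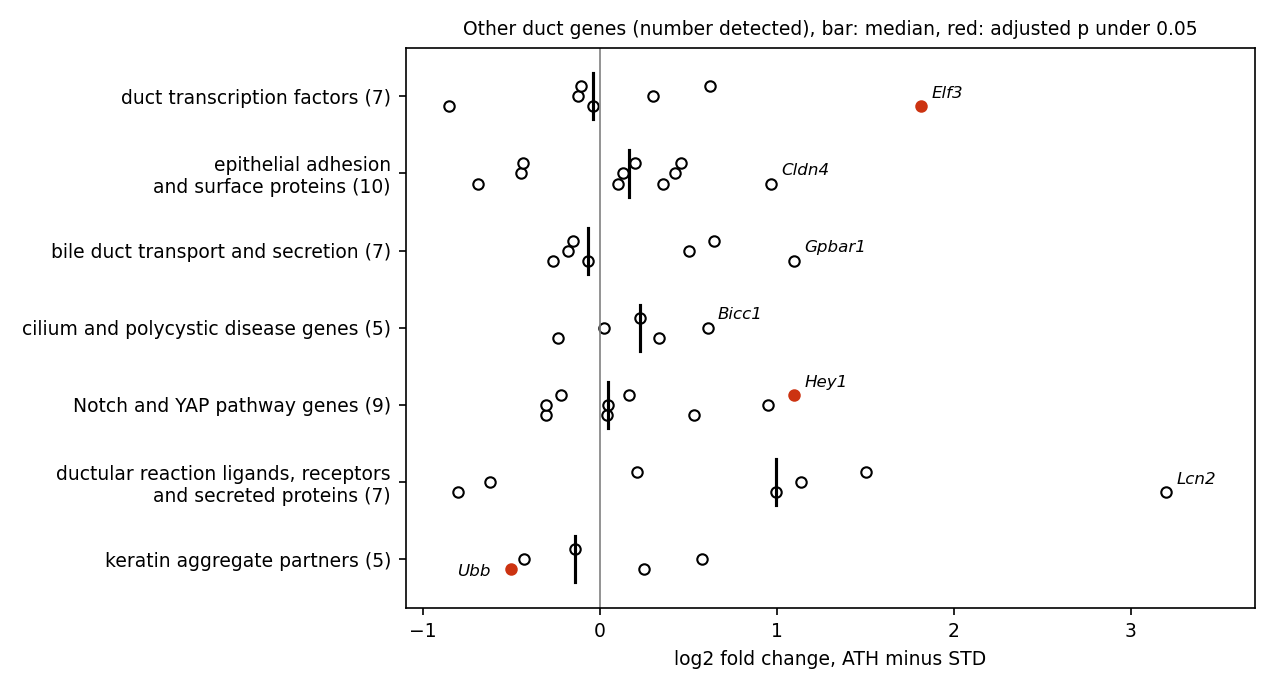
Change in log2 signal (ATH minus STD) of the 50 detected genes of the wider list by group, 1 point per gene at its brightest probe, with the group median as a bar and genes called at an adjusted p under 0.05 in red. Most points lie between -1 and 1, and Elf3, Hey1 and Ubb are the only red points.

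Epithelial cells from outside the biliary tree were checked by their own markers. Of 8 mesothelial markers 4 were detected, among them Msln and Gpm6a on all 8 arrays, and 0 were called, with mean levels of -4.49 to -3.65 in STD mice and -4.99 to -3.75 in ATH mice. Wt1, Upk3b, Upk1b and Lrrn4 were not detected. Of 6 keratinocyte keratins all were detected at mean levels of -2.70 to -2.57 in STD mice and -2.87 to -2.63 in ATH mice, with 0 called. Of 8 gut and pancreas epithelial markers 6 were detected, with levels of -3.70 to -2.72 and -3.41 to -2.72, and 0 called. Of 8 T cell markers all were detected, with levels of -3.75 to -3.08 and -3.54 to -1.48 and 0 called, and 5 of 8 erythroid markers were detected, with 1 called lower (0 in the paired fit).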

How the data were processed

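Total RNA from 8 livers was labeled with Cy3 for Agilent one-color whole mouse genome 4×44 arrays. Per the labels, the authors extracted spots with Agilent Feature Extraction 9.5, and the deposited intensity values are background-subtracted processed signals for 43379 non-control spots per array. A second table deposited by the authors, from GeneSpring per their methods, holds log2 values whose column medians lie between -0.039 and 0.164 and whose scaling and baseline are not given in the sources used here. It served as an alternative. Between 72.35% and 77.76% of spots were well above background. The number of arrays limits the precision.

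Spots flagged as outliers were left out, spots of a probe were averaged, and log2 signal minus the 75th percentile of the array was tested with limma 3.58.1 in R 4.3.3 (two-sided moderated test from lmFit with eBayes, adjusted by Benjamini-Hochberg over 31055 detected probes). Diet gave 2483 calls at 5% and 164 at 1%. Probes were named through RefSeq accessions or symbols for 32719 probes, and 8455 kept the name in the file. Tables, exact tests and plots were made in Python 3.11.15 (pandas 2.3.3, scipy 1.17.1, matplotlib 3.10.9, numpy 2.4.6). In simulated data for this comparison, with a log2 change of 2 planted in 200 of 31042 probes, 87% were recovered with 9 false calls. Noise was drawn independently for each probe and array. The planted change was larger than that of any member (0.84 for Cd24a, 1.04 for Sox9 and 1.42 for Krt23). The simulation therefore does not show what share of changes of the members' size would be found.

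Groups followed the labels. Same-numbered STD and ATH arrays sit at the same slide position, and across probes their departures from the mean of their diet had correlations of 0.1001, 0.2294, 0.1816 and 0.1763. As each exceeded 0.1, the smallest barely, a fit with replicate number as a block, called the paired fit here, was run as well. Calls and counts are those of the fit without blocks unless another fit is named. In the paired fit, 2 members, 1 gene of the wider list and 1322 probes were called. Arrays with different numbers were not compared in this way, so the correlations do not show that the mice were paired. The member genes and all lists were chosen with earlier results of these data known. All members were named. Of the wider list, each called gene and, in a group without calls, the gene with the largest change were named. Jag1, Notch2, Hes1, Onecut1, St14, Hgf, Sqstm1, Spp1, Tnfrsf12a, Fgf7, Cldn3 and the marker genes were added after their values were seen. So were Ctgf, Tgm2, Pkd2 and Hnf4a. The comparison of member pairs was also added later. Alternatives covered scaling, normexp background correction with an offset of 50, the deposited values, the detection filter, outlier flags, the test, the threshold, the choice of probe, the paired fit and leaving out arrays singly.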

Additional observations from a re-analysis of the deposited data

Results flagged for a closer look

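Lcn2 in STD mice held 1 sample far from the others. STD replicate 4 had a scaled log2 signal of 3.44, while the other STD mice had -3.79, -3.22 and -3.22, a gap of 0.921 of the whole range, more than the limit set for 4 samples. The ATH mice had 1.49, -0.35, 1.996 and 2.87, so this STD mouse was above all of them. Without this mouse the change of Lcn2 was 4.92 (limma adjusted p = 0.018). It was also the lowest STD mouse for Krt23, Epcam and Cftr and the highest for Krt7, Krt19, Krt8 and Krt18. Such ends were not particular to it, as STD replicate 3 was the highest for Sox9, Epcam, Cd24a and Cftr and the lowest for Krt7 and Krt18. About 1 in 20 groups would be flagged by chance.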

How the results depend on the processing

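Among the members, 2 were called. Without scaling this became 5 (Krt7, Krt8, Krt18, Sox9 and Cd24a) and with spike-in probes 4 (Krt7, Krt8, Sox9 and Cd24a). It became 0 without a detection filter, at a false discovery rate of 1% and by the methods' t-test, and was 0 to 2 with an array left out (2 without ATH replicate 1 or 2, otherwise 0). The methods' t-test here was a t-test with unequal variances on scaled log2 signal, called at 5%. It stands in for the study's analysis of variance with unequal variance, which was run in GeneSpring. Its calls were not compared with the study's list of changed probes. By limma, 4 members had an unadjusted p under 0.05. Sox9 was lost in 9 of 20 alternatives and Cd24a in 8, and neither changed sign in any. For the wider list, 3 calls became 20 without scaling, 9 with spike-in probes, 8 with normexp, 1 without a detection filter, 1 with the replicate block, 0 at 1% and 0 by the methods' t-test, and 1 to 9 with an array left out (9 without ATH replicate 2, and 1 when STD replicates 1 or 3, or ATH replicates 3 or 4, were omitted). Over all probes, 2483 calls became 7364 without scaling, 6394 with normexp, 1086 without a detection filter, 1322 with the replicate block, 164 at 1% and 22 by the methods' t-test, and 394 to 3979 with an array left out (394 without STD replicate 3, 3979 without ATH replicate 2, and 1683 without ATH replicate 1). Changes crossed 0 for Krt19 with normexp (-0.025) and with an array left out (-0.005 to 0.281), for Epcam without scaling (0.353), with spike-in probes (0.216) and with an array left out (-0.205 to 0.009), and for Cftr without scaling (0.309) and with spike-in probes (0.172). The replicate block changed the call of no member gene at its brightest probe, and its effect on the marker lists is given with them. The cause of these differences was not tested.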
